A study of Macaca mulatta with 2 samples.

Results

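The CX3CR1+ GZMB+ T cells described here are the circulating cells of 1 rhesus monkey that carried mRNA for the fractalkine receptor CX3CR1 together with abundant mRNA for granzyme B, a protease of cytotoxic granules. They were chosen by their own transcripts. A cell was taken when its raw counts held at least 1 UMI of CX3CR1, at least 3 UMIs of GZMB, at least 1 UMI of the CD3 genes (CD3D, CD3E and CD3G together) and no UMI of the T cell receptor segments TRAV12-2, TRAV19 and TRBV7-3. A UMI (unique molecular identifier) marks a captured mRNA molecule, so that copies made by PCR are counted once. The gate held 710 of the 7601 cells that passed the filters of 200 to 4000 genes and at most 20% mitochondrial UMIs, or 9.34% of them. Of the 7445 kept cells with a CD3 UMI, it held 9.54% (95% exact interval 8.88 to 10.2%). The comparison cells were the 4122 kept cells with a CD3 UMI and no GZMB UMI, called GZMB-zero cells below.

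The animal was a healthy, untreated rhesus monkey, 6 years old, and CD4+CD8+ double-positive (DP) T cells were drawn from its blood mononuclear cells with CD4 beads that can be released again and then with CD8 beads. Transcripts and CD4 and CD8 antibody tags were read in separate libraries of the same cells, made with a 10x Genomics 5′ kit. The pair of libraries is 1 sample, so there was no replicate and no statistical test, and every interval given here is a 95% exact interval that covers counting error only. Gated cells held a median of 3458.5 UMIs (range 917 to 20629) and 1360 genes, against 4035 UMIs and 1279 genes in GZMB-zero cells.

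Cytotoxic lymphocytes kill by releasing granules against a target cell: perforin opens the membrane and granzymes enter and cleave proteins inside. CX3CR1 binds fractalkine on inflamed endothelium and, with the adhesion receptor ADGRG1 (GPR56) and the transcription factor T-bet (TBX21), is known as a mark of long-lived effector cells that patrol the blood. Naive and central memory T cells instead keep CCR7, TCF7 and LEF1, which belong to lymph node homing and self-renewal.

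The granzyme B gene lies on chromosome 7 of Mmul_10 at chr7:86703929-86707259 on the minus strand, beside GZMH at chr7:86673660-86677011 and the mast cell protease gene CMA1 at chr7:86583968-86586894, both also on the minus strand. These positions and the coding sequences come from the RefSeq annotation of Mmul_10. The coding sequences of GZMB and GZMH were 79.8% identical over 738 aligned bases, and their longest shared stretch was 75 bases. That stretch is shown because a read that lies within it matches both genes. In both genes it lies in exon 3 of 5, at chr7:86705338-86705412 in GZMB and at chr7:86674807-86674881 in GZMH. It is printed 5′ to 3′ on the coding strand:
GZMB and GZMH: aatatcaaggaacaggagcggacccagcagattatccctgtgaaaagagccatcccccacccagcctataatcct
CMA1: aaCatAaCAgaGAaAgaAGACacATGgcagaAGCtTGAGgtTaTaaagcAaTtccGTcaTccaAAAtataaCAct
The CMA1 line is the part of its exon 3 that aligned to the same bases, at chr7:86585126-86585200. Capitals mark 33 bases that differ from GZMB in an alignment with gaps, which the lines do not show. Read position by position, some lowercase bases differ from GZMB as well. CMA1 and GZMB were 67.1% identical over 724 aligned bases, with a longest shared run of 20 bases, and CMA1 and GZMH 63.0% over 725, with a longest run of 22. No feature used here is named GZMH, and the counting software leaves out reads that map to several places, so GZMB counts are uncertain for reads within the shared stretch. Its part in the counts was not tested.

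The gate itself gave GZMB 12 UMIs per cell at the median (quartiles 7 and 19, range 3 to 55), CX3CR1 1 UMI (range 1 to 8) and the CD3 genes 12 UMIs (range 2 to 45). These values describe the rule. Just inside it were 35 cells with 3 GZMB UMIs. Just outside it, among cells that met every other condition, were 22 cells with 2 GZMB UMIs, 26 with 1 and 31 with none. CX3CR1 was at its limit of 1 UMI in 467 of the gated cells and at 2 or more in 243. CX3CR1 mRNA was sparse, so the limit of 1 UMI also follows a cell's depth. To set cells at equal depth, 2000 UMIs were drawn at random from each (thinning), which 26 gated and 235 GZMB-zero cells were too shallow for. A CX3CR1 UMI remained in 63.0% of the 684 gated cells and a GZMB UMI in 98.4%.

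Levels are given as CPM, the summed UMIs of a gene in a group of cells per 1000000 UMIs of that group, and a log2 ratio is the log2 of gated CPM over GZMB-zero CPM. ADGRG1, which the gate did not use, lies at chr20:44855566-44904737 on the plus strand. It had 57.0 CPM in gated cells and 0.90 CPM in GZMB-zero cells (162 and 16 UMIs), a log2 ratio of 5.99 (5.24 to 6.83). TBX21, at chr16:49068500-49083990 on the minus strand, had 62.3 and 6.86 CPM (177 and 122 UMIs), a log2 ratio of 3.18 (2.84 to 3.53). Both are low transcripts. After thinning, an ADGRG1 UMI was seen in 12.1% of gated and 0.18% of GZMB-zero cells, and a TBX21 UMI in 12% and 1.41%. Without thinning the shares were 18.7% and 0.388% for ADGRG1 and 21.0% and 2.81% for TBX21. A UMI of either gene was found in 155 of the 684 thinned gated cells, or 22.7% (19.6 to 26%), against 1.60% of GZMB-zero cells, and both genes were seen together in 10 gated cells. The background for such shares was read in 86 kept cells with no CD3 UMI and at least 3 UMIs of the B cell genes, called B cell gene cells, which should lack these transcripts. Their median depth was 4137.5 UMIs, and after thinning 1.27% of them held a UMI of ADGRG1 or TBX21.

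The CD4 antibody tag was seen on nearly all gated cells and the CD8 tag varied widely. The CD4 tag had a median of 318 UMIs per gated cell (quartiles 252 and 431.25), 430 in GZMB-zero cells and 90 in B cell gene cells. The CD8 tag had a median of 338 UMIs (226.25 and 541.5), 334 in GZMB-zero cells and 139.5 in B cell gene cells. Set against the 90th percentile of B cell gene cells, which was 191 CD4 and 330.5 CD8 tag UMIs, 93.7% of gated cells lay above the limit for CD4, 51.5% above it for CD8 and 48.2% above both. GZMB-zero cells gave 94.9%, 50.5% and 48.9%. For the gated cells that were not above both limits, the tags do not bear out the double-positive label at this depth, and the label rests on the bead selection.

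**Figure D1:**
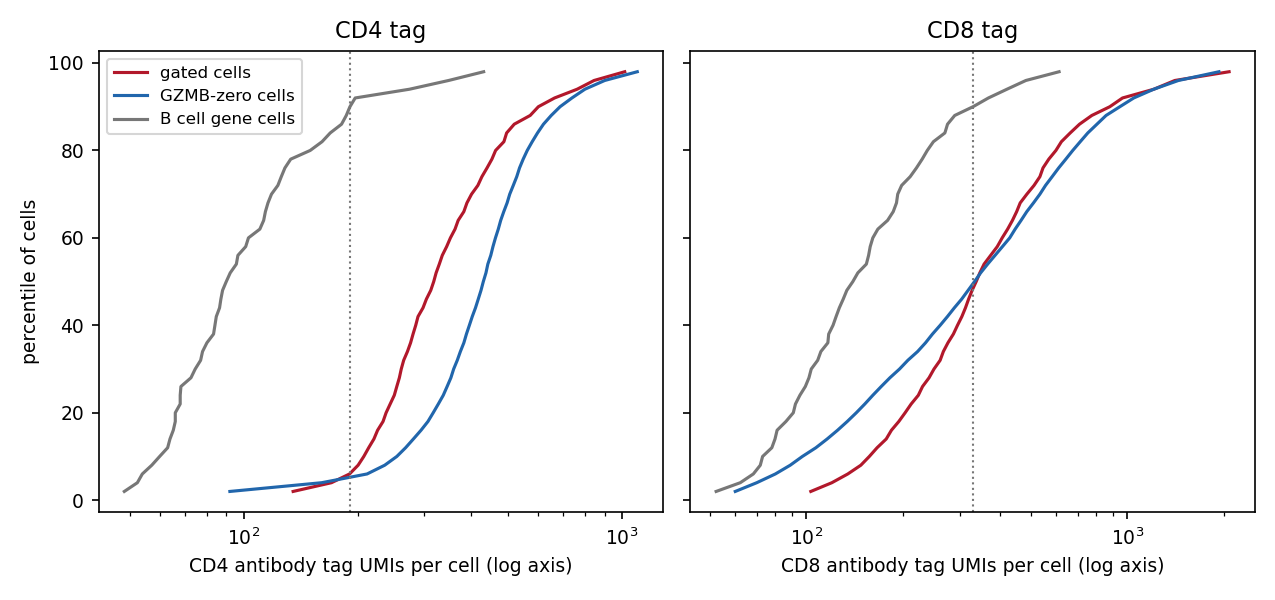
CD4 (left) and CD8 (right) antibody tag UMIs per cell on a log axis against the percentile of cells, from the 2nd to the 98th, for gated, GZMB-zero and B cell gene cells. The dotted lines are the 90th percentile of B cell gene cells, 191 CD4 and 330.5 CD8 UMIs. The gated CD4 curve lies left of the GZMB-zero curve at the median (318 against 430 UMIs) and right of it at the lowest percentiles, and the CD8 curves of these groups meet near their medians of 338 and 334.

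Coreceptor mRNA and protein tags moved together for CD8 more than for CD4. Gated cells with a CD8A UMI (298 cells) had a median of 486.5 CD8 tag UMIs, and the 412 without had 274. The 15 cells with a CD8B UMI had a median of 1484 CD8 tag UMIs against 332 in the others, but they were also deep cells, with a median of 7035 UMIs against 3450. For CD4 the medians were 329 tag UMIs with and 299 without a CD4 mRNA UMI. In the groups as a whole, CD4 mRNA was 219 CPM in gated and 162 CPM in GZMB-zero cells, and CD8A, the chain that the CD8 tag reads, was 205 and 160 CPM. CD8B, which pairs with CD8A on conventional killer T cells, had only 36 UMIs in gated cells and 314 in GZMB-zero cells, with a log2 ratio of -0.48 (-1.02 to 0.02).

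Over all genes, a gene was counted as higher or lower where the ratio of CPM + 10 was at least 2-fold and the group with more held at least 50 UMIs. The genes of the gate were not counted. Of 7339 genes compared with GZMB-zero cells, 273 were higher in gated cells, which is 3.72% of them, and 138 were lower, which is 1.88%, so that 5.6% differed in either direction. The median over all 7339 genes was 0.10 on the log2 scale of CPM + 10. Because the cells were chosen by GZMB, genes that accompany it had to appear here, so the counts describe the gated cells and are no test. Ribosomal protein mRNA made up 21.2% of the UMIs of gated cells and 30.8% of those of GZMB-zero cells. With the ribosomal UMIs left out of the totals, an alternative chosen after seeing the data, the median moved by -0.15 to -0.05, and 208 genes were higher and 225 lower. Each log2 ratio of CPM falls by 0.19 in that setting.

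**Figure D2:**
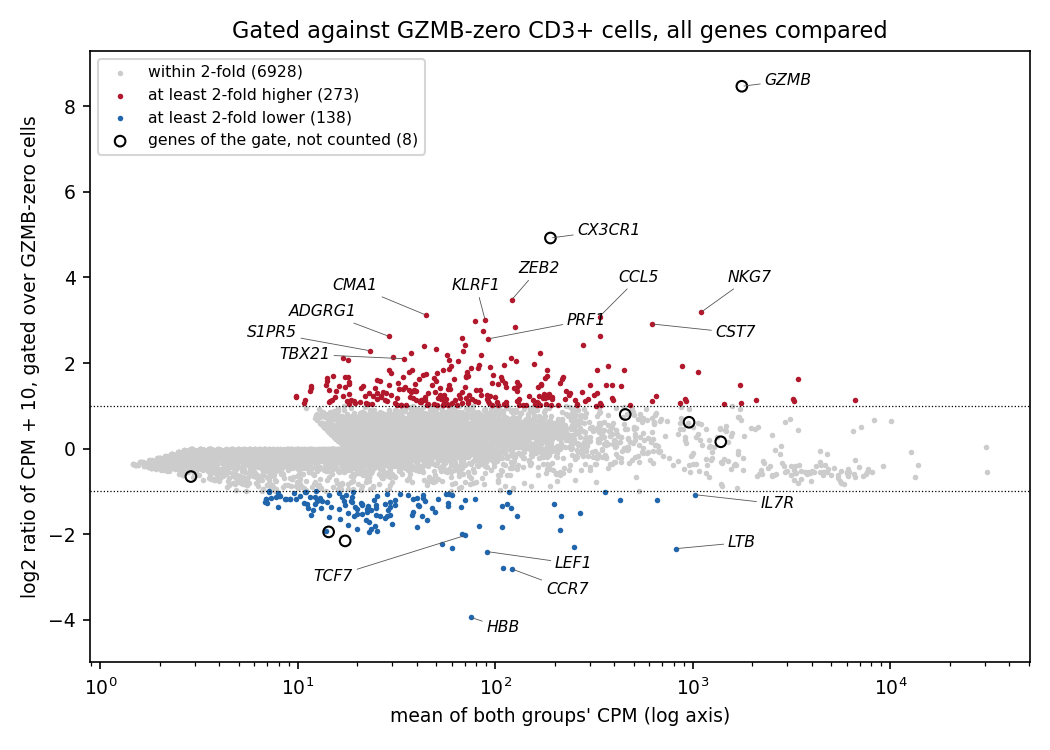
Each point is a gene, with its mean CPM over both groups on a log x axis and the log2 ratio of CPM + 10, gated over GZMB-zero cells, on the y axis. Red points (273) are at least 2-fold higher in gated cells and blue points (138) at least 2-fold lower, and circles mark the genes of the gate. ZEB2, NKG7, CMA1, CCL5 and KLRF1 lead the higher genes and CCR7, LEF1 and LTB are among the leading lower genes, while the low point of HBB comes from 1 GZMB-zero cell.

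Granule genes were higher or within 2-fold. Of 16 granule protein genes compared, 11 were higher, none was lower, and the median was 1.06 on the log2 scale of CPM + 10. Their summed level was 7622 CPM in gated and 2472 CPM in GZMB-zero cells. Of the 11, CTSW, GNLY, LAMP1 and SRGN would fall under 2-fold with ribosomal UMIs left out of the totals. NKG7, a granule membrane protein needed for full killing, at chr19:51162703-51164180 on the minus strand, had 1985 against 209 CPM (log2 ratio 3.24, 3.18 to 3.30), and its UMI was seen in 96.3% of thinned gated cells, 23.2% of GZMB-zero cells and 3.80% of B cell gene cells. CST7 (cystatin F), which controls granule proteases, had 1099.7 against 137 CPM (3.0, 2.92 to 3.08).

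PRF1, which encodes perforin and lies at chr9:67182693-67188420 on the plus strand, had 165 against 19.5 CPM, a log2 ratio of 3.08 (2.87 to 3.28). Its UMI was seen in 26.3% of thinned gated cells, 3.45% of GZMB-zero cells and none of the 79 thinned B cell gene cells, which allows a share of up to 3.80%. FGFBP2, a secreted protein known from killer cells, at chr5:14960125-14963217 on the minus strand, was nearly absent from GZMB-zero cells, at 35.2 against 0.731 CPM (5.59, 4.75 to 6.55). Serglycin (SRGN), the proteoglycan that holds granule contents, was high in both groups, at 2380 against 1138 CPM. SERPINB9, which protects a killer cell from its own granzyme B, had 168 against 45.7 CPM (1.88, 1.71 to 2.04), and granzyme M (GZMM) 171 against 52.4 CPM (1.70, 1.54 to 1.86).

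Granulysin and the granzymes K and A were closer to GZMB-zero cells than NKG7 and PRF1, or too low to compare. Granulysin (GNLY) was 459 against 214 CPM, a log2 ratio of 1.10 (1.01 to 1.19). Granzyme K (GZMK) was 243 against 204 CPM, a log2 ratio of 0.25 (0.13 to 0.37), and it did not pass 2-fold. Its direction depended on the gate: on CPM + 10 it was -0.58 with CX3CR1 of at least 2 UMIs, -0.13 without the segment exclusion and -0.27 when cells were thinned before the gate. Granzyme A had only 9 UMIs in gated cells and 4 in GZMB-zero cells, under the minimum for a comparison. Genes of granule transport and fusion were mixed: RAB27A (1.38) and LAMP1 (1.09) passed 2-fold, and UNC13D (0.64), STXBP2 (0.61) and STX11 (1.19 on CPM, 0.75 on CPM + 10) did not.

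**Figure D3:**
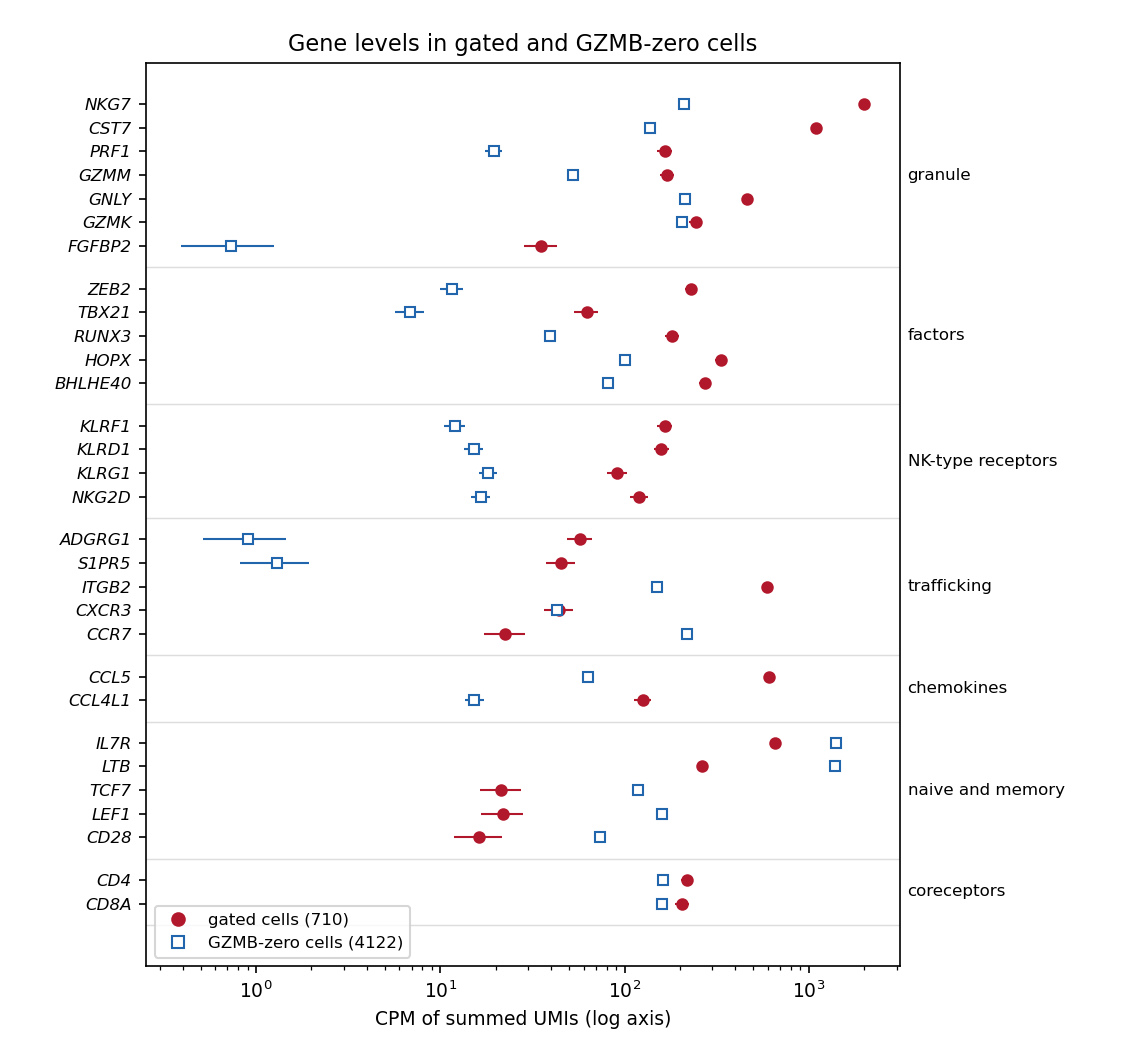
Level of 30 genes grouped by role, in CPM of summed UMIs on a log axis, for gated cells (filled circles) and GZMB-zero cells (open squares), with 95% exact counting intervals. Granule genes, factors, NK-type receptors and chemokines lie to the right in gated cells, GZMK only narrowly (243 against 204 CPM). CCR7 and the naive and memory genes lie to the left, and CXCR3 (44.0 and 42.8 CPM) overlaps.

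Chemokines and cytokines split. Of 9 genes compared among death ligands, cytokines and chemokines, 2 were higher and 3 lower, with a median of -0.16. CCL5 (RANTES), a chemokine that draws T cells and monocytes, at chr16:32220376-32229833 on the minus strand, had 610 against 63.0 CPM (3.27, 3.17 to 3.38) and a UMI in 48.2% of thinned gated cells, 5.97% of GZMB-zero cells and 3.80% of B cell gene cells. CCL4L1, a related chemokine outside this list and among the genes with the largest ratio, had 125 against 15.3 CPM (3.03, 2.80 to 3.27). Interferon gamma (IFNG) was low but different, at 17.6 against 1.86 CPM (50 and 33 UMIs), a log2 ratio of 3.25 (2.58 to 3.93). Fas ligand had 40 UMIs in gated cells and 18 in GZMB-zero cells, and the chemokine CCL3 had 34 and 8, both under the minimum for a comparison. Their log2 ratios of CPM + 10 were 1.13 and 1.07, so that with them 4 genes of the list would be higher and 3 lower. LTB (lymphotoxin beta), which organizes lymphoid tissue, was 264 against 1379 CPM (-2.38, -2.49 to -2.28). The death ligand TRAIL (TNFSF10) was 7.04 against 29.9 CPM (-2.09, -2.81 to -1.45), and CXCL13, a chemokine of B cell follicles, had 4 UMIs in gated and 262 in GZMB-zero cells (-3.39, -5.27 to -2.01).

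Receptors best known from NK cells were higher in 9 of the 10 genes of that list that could be compared, none was lower, and the median was 1.81. The share of higher genes over all genes was 3.72%. The other genes of the 21 named in this list had too few UMIs to compare, and their ratios went in both directions. The 9 higher genes belong mainly to the killer cell lectin-like family. KLRF1 (NKp80) had 166 against 12 CPM (3.79, 3.55 to 4.03) and a UMI in 29.8% of thinned gated and 2.37% of GZMB-zero cells. KLRD1 (CD94) had 158 against 15.2 CPM (3.38, 3.16 to 3.60), NKG2D, an activating receptor for stress ligands, 120 against 16.6 CPM (2.85, 2.63 to 3.08), and KLRG1, an inhibitory receptor for cadherins, 90.8 against 18.2 CPM (2.32, 2.08 to 2.56). KLRB1 (CD161) was closer, at 237 against 95.5 CPM (1.31, 1.18 to 1.44). HCST (DAP10), the adaptor through which NKG2D signals, had 1643 against 469 CPM (1.81, 1.76 to 1.86). NCR3 (NKp30), SLAMF6 and SLAMF7 also passed 2-fold, with log2 ratios of 2.41, 2.19 and 1.89. TYROBP (DAP12), the adaptor of other activating receptors, was 126 against 78.5 CPM (0.69, 0.52 to 0.85) and was not past 2-fold. Its UMI was seen in 15.4% of thinned gated, 8.93% of GZMB-zero and 21.5% of B cell gene cells, and no expression is read from these shares.

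Of the 6 NK cell markers, all named in the data, 4 were at or near 0 in the gated cells, and KLRF1 and TYROBP, given above, had enough UMIs to compare. The summed level of the 6 was 294 CPM in gated and 91.5 CPM in GZMB-zero cells, with KLRF1 the most abundant in gated and TYROBP in GZMB-zero cells. NCAM1 (CD56) and NCR1 (NKp46) had no UMI in the gated cells, where 3 UMIs are 1.06 CPM, the limit that a count of 0 allows. FCGR3 (CD16) had 3 UMIs and FCER1G had 4. Every gated cell carried CD3 UMIs by the rule, at a median of 12.

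Transcription factors of effector cells were higher in 8 of 19 genes compared, none was lower, and the median was 0.84. ZEB2, which acts with T-bet in terminal effector cells, at chr12:31537989-31670405 on the minus strand, had the largest ratio on CPM + 10 of any gene with a symbol outside the gate. It had 230 against 11.5 CPM, a log2 ratio of 4.32 (4.09 to 4.55). A ZEB2 UMI was seen in 39.6% of thinned gated and 2.11% of GZMB-zero cells, and in 22.8% of B cell gene cells. RUNX3, a factor of killer T cells, had 181 against 39.6 CPM (2.19, 2.02 to 2.36), BHLHE40 273 against 80.9 CPM (1.76, 1.63 to 1.88), and HOPX 332 against 100.3 CPM (1.73, 1.61 to 1.84). NFIL3 (1.76), PRDM1, which encodes BLIMP-1 (1.63), and ID2 (1.49) passed 2-fold as well. EOMES, the T-box factor related to T-bet, did not follow TBX21: it had 14.8 CPM in gated and 16.7 CPM in GZMB-zero cells, a log2 ratio of -0.18 (-0.68 to 0.29).

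Homing genes differed by kind. Of 22 trafficking receptors and integrins compared, 4 were higher and 6 lower, with a median of -0.07. Beside ADGRG1, the higher genes were S1PR5, ITGB2 and ITGAL. S1PR5, a sphingosine phosphate receptor that keeps effector cells in the circulation, at chr19:10267543-10272960 on the minus strand, had 45.1 against 1.29 CPM (5.12, 4.47 to 5.83). ITGB2 and ITGAL, which together form the adhesion integrin LFA-1, had 596 against 150.1 CPM (1.99, 1.90 to 2.08) and 256 against 83.9 CPM (1.61, 1.48 to 1.74). The lower genes were CCR7, at 22.5 against 219 CPM (-3.28, -3.66 to -2.92), the gut homing receptor CCR9 (-3.06), CCR6 (-2.94), the follicle receptor CXCR5 (-3.20), the collagen-binding ITGA1 (-2.43) and ICAM2 (-2.08). CXCR3, a receptor of inflamed tissue homing, had 44.0 and 42.8 CPM, a log2 ratio of 0.04 (-0.24 to 0.32).

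Naive and memory genes were the counterpart. Of 21 genes compared, 11 were lower, 1 was higher, and the median was -1.08. LEF1 had 21.8 against 159 CPM (-2.86, -3.25 to -2.5) and TCF7, which encodes TCF-1, 21.5 against 119 CPM (-2.47, -2.86 to -2.10). The costimulatory receptor CD28 had 16.2 against 73.9 CPM (-2.19, -2.65 to -1.77), CD7 77.5 against 424 CPM (-2.45, -2.65 to -2.26), and PECAM1 (CD31) 13.4 against 108 CPM (-3.01, -3.51 to -2.55). SATB1 (-2.10), and BCL2 (-1.67), which protects long-lived cells from death, were also lower. IL7R, the survival cytokine receptor of resting T cells, was lower but far from lost, at 656 against 1396 CPM (-1.09, -1.16 to -1.02) and with a UMI in 58.6% of thinned gated, 86.4% of GZMB-zero and 5.06% of B cell gene cells. The gene that was higher was KLF3, a Krüppel-like factor, at 410.2 against 179 CPM (1.20, 1.10 to 1.29). It would fall under 2-fold with ribosomal UMIs left out of the totals.

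Of 15 helper and regulatory lineage genes compared, 6 were lower in gated cells and none was higher, with a median of -0.61 and a summed level of 446 against 557 CPM. The 6 share CXCR5, CXCL13 and CCR6 with the lists above. FOXP3, the factor of regulatory T cells, had 1 UMI in gated cells and 238 in GZMB-zero cells (log2 ratio -5.25, -10.56 to -2.76), the interleukin 2 receptor chain IL2RA had 6 and 310, and CTLA4 had 8.10 against 29.6 CPM (-1.87, -2.54 to -1.27). GATA3, the factor of type 2 helper cells, was 59.9 against 77.2 CPM and did not pass 2-fold. On the other side, within 2-fold, were RORA at 142 against 92.3 CPM (0.62), CD40LG, the ligand with which helper cells stimulate B cells, at 72.5 against 40.3 CPM (0.85), and MAF at 28.5 against 17.2 CPM (0.73).

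Among checkpoint receptors, 2 of 9 were higher and 1 was lower, with a median of -0.07. PD-1 (PDCD1) had 284 against 52.9 CPM (2.42, 2.29 to 2.56) and a UMI in 41.1% of thinned gated cells, 9.21% of GZMB-zero cells and 2.53% of B cell gene cells. LAIR1, an inhibitory collagen receptor, had 588 against 86.4 CPM (2.77, 2.67 to 2.87). The shares of LAIR1 were 67.3% in gated, 15.3% in GZMB-zero and 15.2% in B cell gene cells. The lower gene was CTLA4, given above, and TIGIT (77.5 against 63.4 CPM) did not pass 2-fold. LAG3 (6.34 against 19.4 CPM) and BTLA (2 and 158 UMIs, log2 ratio -3.66) did so on CPM but not on CPM + 10.

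T cell receptor signalling genes were mostly within 2-fold: 3 of 16 were higher, 1 was lower, and the median was 0.71. CD6 (1.37), the phosphatase gene PTPN22 (1.41) and the adaptor gene SLA2 (1.37) were higher, and DUSP2, a phosphatase gene that activated cells induce, was lower at 135 against 402 CPM (-1.57, -1.72 to -1.42). The kinase LCK had 538 against 276 CPM (0.96, 0.88 to 1.05). Of 14 cytokine receptors, 2 were higher and 4 lower, with a median of 0.10. IL10RA had 449 against 154 CPM (1.54, 1.44 to 1.64) and TGFBR3, a coreceptor for TGF-beta, 256 against 57.3 CPM (2.16, 2.02 to 2.30). IL6R and its signalling partner IL6ST were lower, with log2 ratios of -2.67 and -2.08. Of the receptor chains for interleukin 15, IL2RB had 135 against 69.3 CPM and IL2RG 643 against 348 CPM, both within 2-fold.

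Genes of cell shape and movement were higher in 13 of 25 features compared (24 genes, with S100A11 in 2 features), and none was lower. The median was 1.03. With ribosomal UMIs left out of the totals, ACTB, PFN1, EMP3, CORO1A and ANXA1 would fall under 2-fold. S100A4 had 5121 against 1643 CPM (1.64, 1.61 to 1.67), S100A10 2547 against 901 CPM (1.5, 1.46 to 1.54) and beta-actin (ACTB) 9022 against 4127 CPM (1.13, 1.11 to 1.15). S100A6 went the other way, at 395 against 637 CPM (-0.69, -0.78 to -0.60), within 2-fold. Of 17 immediate-early genes, 2 were lower and none higher: JUN at 395 against 918 CPM (-1.22, -1.31 to -1.13) and EGR1 at 32.7 against 79.2 CPM (-1.27, -1.59 to -0.97). The direction for EGR1 turned when cells with a B cell gene UMI were left out (0.47 on CPM + 10). The median of the immediate-early genes was -0.21. JUNB, at 353 against 710 CPM (-1.01, -1.10 to -0.91), passed 2-fold on CPM but not on CPM + 10. Of 9 interferon-stimulated genes, 3 were higher, namely MX2 (1.77), IFI27 (1.46) and BST2 (1.07). Of 5 cell cycle genes, 1 was higher, STMN1 (1.21), while the proliferation marker MKI67 had 18.7 against 7.20 CPM and did not pass 2-fold on CPM + 10. BST2 and STMN1 would also fall under 2-fold with ribosomal UMIs left out of the totals. Ribosomal protein genes had a median of -0.54 over 75 features, and 1 of them was past 2-fold.

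Some of the genes with the largest ratios belong to no list. The feature named CMA1 had 88.0 against 1.29 CPM (6.09, 5.47 to 6.77), and whether reads of GZMH, which has no named feature here, enter its count was not tested. RGS9, a regulator of G protein signalling best known from neurons and the retina, had 148 against 9.85 CPM (3.91, 3.65 to 4.17). SERPINA1, which encodes alpha-1 antitrypsin, had 477 against 80.2 CPM (2.57, 2.46 to 2.68). The tetraspanin gene TSPAN2 had 79.9 against 7.20 CPM (3.47, 3.15 to 3.80). At the other end, the integrin gene ITGA6 had 12.3 against 94.4 CPM (-2.94, -3.46 to -2.45) and GPR183, an oxysterol receptor that guides cells in lymph nodes, 83.1 against 341 CPM (-2.04, -2.23 to -1.85). RCAN3 (-2.44), IFNGR2 (-3.58), SFRP5 (-3.32), GSTT1 (-3.33) and PLK2 (-3.72) were the other lower genes of this kind.

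Markers of monocytes, B cells, MAIT and NKT cells and plasmacytoid dendritic cells were low, while a globin gene, given below, was not. All 6 monocyte markers are named in the data, none reached the minimum for a comparison, and they summed to 1.41 CPM in gated and 3.49 CPM in GZMB-zero cells. CD14, with 3 UMIs, was the most abundant, and CSF1R, FCN1, S100A8 and S100A9 were at 0. The 4 B cell markers summed to 26.8 CPM in gated and 116 CPM in GZMB-zero cells, with CD79B the most abundant in gated cells at 23 UMIs. The 3 named markers of MAIT and NKT cells summed to 26.8 and 41.4 CPM, and the 2 named markers of plasmacytoid dendritic cells to 4.93 and 7.60 CPM. No gamma delta constant gene is named, but a TRGV segment UMI was seen in 90 gated cells (12.7%) and 5.22% of GZMB-zero cells, and a TRDV segment UMI in 3 gated cells. The TRGV share was 15.6% in cells of the same gate with the 3 segments. It was 13.7% in cells with at least 3 GZMB UMIs and no CX3CR1 UMI, so TRGV was not particular to the gate.

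HBA, an alpha globin gene, had 390 UMIs spread over 231 gated cells (32.5%), of which 140 held 1 UMI and the highest 11. In GZMB-zero cells it was seen in 86 cells (2.09%), and 3270 of their 3363 UMIs lay in a lone cell. With that cell left out, a choice made after seeing the data, HBA had 137 CPM in gated and 5.23 CPM in GZMB-zero cells, a log2 ratio of 4.71 (4.38 to 5.06); with it the log2 ratio was -0.46. After thinning, an HBA UMI was seen in 20.2% of gated, 1.03% of GZMB-zero and 7.59% of B cell gene cells. The share was 18.4% in cells of the same gate with the 3 segments and 13.7% in cells with at least 3 GZMB UMIs and no CX3CR1 UMI, so HBA was not particular to the gate. HBB, the beta globin partner of HBA in red cells, had 1 UMI in all gated cells, whereas the lone cell held 2649 of the 2658 UMIs of GZMB-zero cells. Without that cell the log2 ratio of HBB was -0.52 (-5.98 to 2.33), and with it -8.73. Within the gate, the 231 cells with HBA had less IL7R (-0.53, -0.68 to -0.38) and GZMK (-0.57, -0.82 to -0.32) and more NKG7 (0.27, 0.19 to 0.35), PRF1 (0.29, 0.02 to 0.56) and S100A4 (0.31, 0.26 to 0.35) than the 479 without it. ADGRG1 was 57.3 and 56.9 CPM. The median depth was 3736 UMIs with HBA and 3399 without it. The other 4 platelet and red cell markers that are named had at most 1 UMI each in gated cells.

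A score that flags likely doublets (Scrublet) was in the highest 5% of kept cells for 8.03% of gated and 2.94% of GZMB-zero cells. With those cells left out, the gate held 9.24% of the CD3+ cells, and 107 of the 110 named genes past 2-fold were still past it in the same direction. The part of the other cell types' markers and of the mitochondrial share (a median of 3.96% in both groups) in the results was not tested.

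Few genes differed between the gated cells and the cells that the 3 receptor segments kept out. The same gate with a UMI of TRAV12-2 (122 cells), TRAV19 (247) or TRBV7-3 (109) held 467 cells. Of 5030 genes compared, 25 were higher in the cells without these segments (0.497%) and 13 were lower (0.258%), together 0.755%. None was called among 10 NK-type receptors, 15 effector factors and 13 naive and memory genes compared. At the share over all genes, lists of this size would hold few or no calls, so that count is not read. Other receptor segments differed in both directions, with TRBV24-1 first among the higher genes and TRBV11-1 first among the lower ones. Receptor segments chose the groups, so these differences are not read. Beyond segments, GZMK was 243 CPM without and 104 CPM with the segments (log2 ratio 1.23, 1.0 to 1.46), the only granule gene past 2-fold, and DUSP2 was 135 and 351 CPM (-1.37, -1.56 to -1.19). ADGRG1 went the other way, at 57.0 and 86.0 CPM (-0.59, -0.91 to -0.27), as did KLRD1 (-0.57, -0.76 to -0.37). PRF1, NKG7 and ZEB2 had log2 ratios of -0.04, -0.05 and 0.07, with intervals that include 0. The 4 B cell markers summed to 26.8 CPM without and 102 CPM with the segments, and all 3 that could be compared (MS4A1, CD79A and CD79B) were lower without them; their part in the other differences was not tested.

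Cells with at least 3 GZMB UMIs and no CX3CR1 UMI, without the 3 segments, were more numerous (990) and close to the gated cells. Of 5862 genes compared, 3 were higher in the gated cells (0.0512%) and 14 lower (0.239%), together 0.29%. The count of granule genes past 2-fold was 0 of 16, which is not read at that share. ZEB2 was 230 against 179 CPM (0.36, 0.20 to 0.52), FGFBP2 35.2 against 23.6 CPM (0.58, 0.15 to 1.01), and ADGRG1 57.0 against 44.1 CPM (0.37, 0.05 to 0.70). TBX21, at 62.3 against 56.7 CPM, had a log2 ratio of 0.14 (-0.16 to 0.43). GZMK was lower in gated cells at 243 against 454 CPM (-0.90, -1.03 to -0.77), as were GNLY (-0.53, -0.63 to -0.43) and KLRB1 (-0.43, -0.57 to -0.29). TRAV10, the segment of the invariant NKT receptor, was 20.4 against 55.0 CPM (-1.43, -1.88 to -1.0). EZH2, a chromatin silencer of dividing cells, was 32.0 against 15.1 CPM (1.09, 0.59 to 1.60). It was past 2-fold on CPM only and was not among the 3 genes counted as higher. Among genes with a symbol, receptor segments led the higher side, with TRBV14 first. Several of the lower genes came from a few cells of the comparison group: JCHAIN had 6 UMIs in gated cells and 144 in 11 comparison cells, and IRF8 had 9 and 116, the latter in 5 cells. Markers of plasmacytoid dendritic cells summed to 4.93 CPM in gated and 38.1 CPM in comparison cells (1 of 1 compared was lower) and those of MAIT and NKT cells to 26.8 and 66.5 CPM (1 of 1 lower), and their part was not tested. CX3CR1 is a sparse transcript, so cells that express it and gave no UMI can be part of this comparison group.

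Against the 264 cells with EOMES and GZMK UMIs and no CX3CR1 UMI, the other set of granule-rich T cells, the differences were wider. Of 4546 genes compared, 81 were higher in gated cells (1.78%) and 40 lower (0.88%), together 2.66%. ADGRG1 had 57.0 against 2.79 CPM (162 and 3 UMIs, log2 ratio 4.35, 2.78 to 6.64), ZEB2 230 against 52.1 CPM (2.14, 1.75 to 2.56), TBX21 62.3 against 14.0 CPM (2.16, 1.40 to 3.03), and S1PR5 45.1 against 12.1 CPM (1.90, 1.07 to 2.84). CCR7 had 22.5 against 248 CPM (-3.46, -3.88 to -3.06) and LTB 264 against 1041 CPM (-1.98, -2.11 to -1.84), and 7 of 13 naive and memory genes were lower and none higher. Killing genes were nearer each other: PRF1 had 165 against 125 CPM (0.40, 0.12 to 0.69), NKG7 1985 against 1193 CPM (0.73, 0.65 to 0.82) and GNLY 459 against 737 CPM (-0.68, -0.81 to -0.55). GZMK and EOMES chose the comparison cells and are not read. Markers of other cells differed too: the B cell markers summed to 26.8 against 149 CPM, with 2 of 2 lower, and the platelet and red cell markers, nearly all HBA, to 138 against 14.9 CPM. Their part was not tested.

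**Figure D4:**
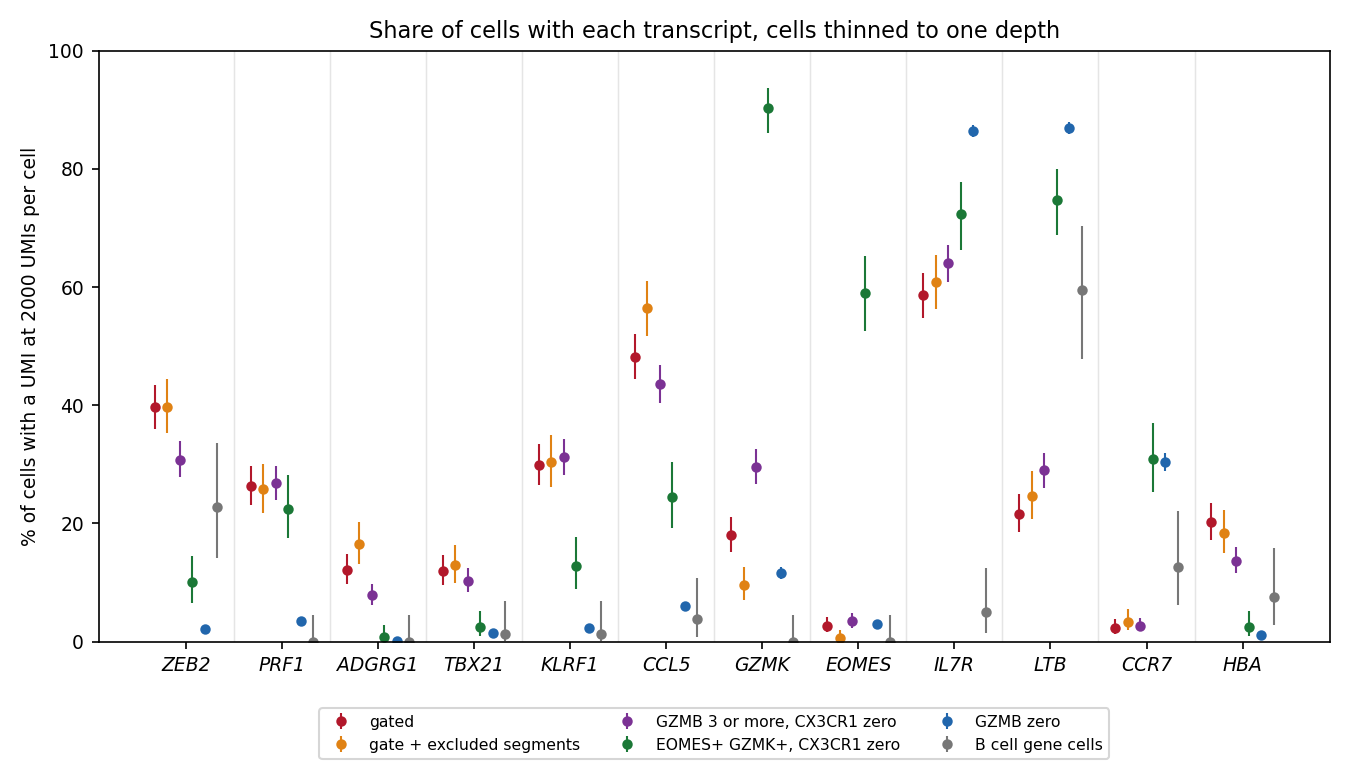
Share of cells with a UMI of 12 genes after each cell was thinned to 2000 UMIs, in percent, for the 6 groups of cells, with 95% exact intervals. Gated cells lie near the 2 other groups chosen by GZMB and apart from GZMB-zero cells for ZEB2 (39.6 against 2.11%), CCL5 (48.2 against 5.97%) and LTB (21.6 against 87.0%), and B cell gene cells are shown beside them.

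Levels across classes of GZMB UMIs, a gene that the gate used, are given for CX3CR1+ CD3+ cells in and outside the gate. Among CX3CR1+ CD3+ cells without the 3 segments, thinned to 2000 UMIs and grouped by GZMB UMIs into 0 (50 cells), 1 to 2 (97), 3 to 5 (179), 6 to 10 (256) and 11 or more (167), PRF1 had 70.0, 82.5, 126, 160.2 and 287 CPM. NKG7 had 1080.0, 1392, 1729, 2057 and 2695 CPM across the same classes. IL7R had the opposite order, 1200.0, 974, 838, 549 and 359 CPM, as did LTB, 690.0, 387, 271, 119 and 62.9 CPM. GNLY had no such order, with 390.0, 490, 399, 490.2 and 404 CPM. CCR7 had 6 UMIs in the 50 cells without GZMB and none in the 167 of the highest class. The classes with few GZMB UMIs include cells outside the gate, so these values describe CX3CR1+ cells and are no measure of differences among gated cells.

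**Figure D5:**
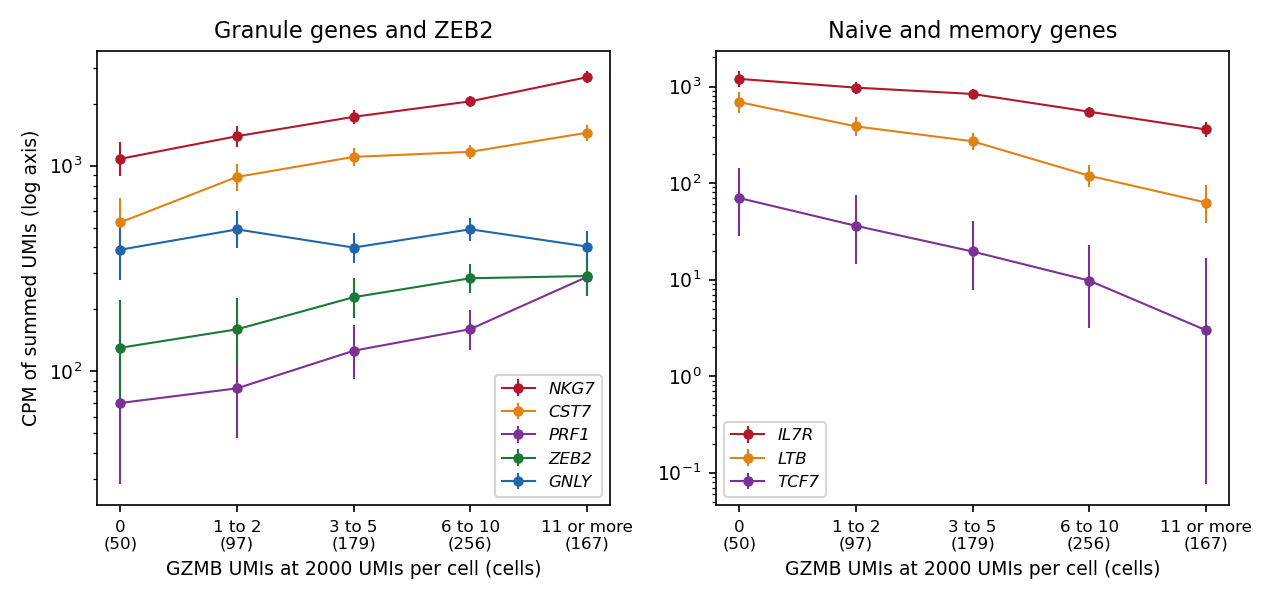
CPM of summed UMIs on a log axis, with 95% exact counting intervals, in CX3CR1+ CD3+ cells grouped by their GZMB UMIs after thinning to 2000 UMIs (number of cells in brackets). NKG7 goes from 1080.0 to 2695 CPM and PRF1 from 70.0 to 287 CPM (left), GNLY stays between 390.0 and 490.2 CPM, and IL7R goes from 1200.0 to 359 CPM and LTB from 690.0 to 62.9 CPM (right).

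Within the gate, the 505 cells with an IL7R UMI had more LTB (333 against 44.6 CPM, log2 ratio 2.9, 2.37 to 3.48), TCF7 (2.59, 0.97 to 4.91) and CXCR3 (1.55, 0.69 to 2.54) than the 205 without, and they held all 64 CCR7 UMIs. They had less FGFBP2 (23.5 against 72.8 CPM, -1.63, -2.22 to -1.03), ADGRG1 (43.4 against 101 CPM, -1.22, -1.68 to -0.75) and PRF1 (-0.77, -1.05 to -0.48). Not all effector genes had this order: GNLY was 490.2 against 359 CPM (0.45, 0.24 to 0.65) and KLRB1 258 against 172 CPM (0.58, 0.29 to 0.88). The median depth was 3591 UMIs with and 3186 without an IL7R UMI, and its part was not tested.

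GZMK was seen in a minority of the gate. The 179 gated cells with a GZMK UMI held 36 of the 42 EOMES UMIs (log2 ratio 4.12, 2.86 to 5.66) and had more KLRB1 (378 against 189 CPM, 1.0, 0.78 to 1.23) and GNLY (651 against 393 CPM, 0.73, 0.56 to 0.89) than the 531 without. ADGRG1 (28.9 against 66.7 CPM, -1.21, -1.94 to -0.54) and FGFBP2 (11 against 43.5 CPM, -1.98, -3.24 to -0.95) were lower in them. PRF1 was 161 and 166 CPM, with a log2 ratio of -0.05 (-0.36 to 0.26), and TBX21 60.5 and 62.9 CPM.

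The CD8 tag divided the gate into 366 cells above the B cell limit and 344 at or below it. CD8A mRNA was 299 and 81.2 CPM (1.88, 1.56 to 2.21), and all 36 CD8B UMIs lay in the cells above. Granule genes were mixed in this division: PRF1 had a log2 ratio of 0.10 (-0.17 to 0.37) and GNLY 0.12 (-0.04 to 0.28), with intervals that include 0, while NKG7 (-0.16, -0.24 to -0.09), GZMM (-0.49, -0.75 to -0.23) and GZMK (-0.55, -0.76 to -0.33) were lower above the limit. LTB was higher above the limit, at 354 against 145 CPM (1.29, 1.04 to 1.54), and 60 of the 64 CCR7 UMIs were there. KLRB1 (-0.57, -0.79 to -0.34) and KLRF1 (-0.50, -0.76 to -0.23) were lower, and TYROBP was higher at 152 against 92.7 CPM (0.71, 0.38 to 1.05). The median depth was 3548 UMIs above the limit and 3399.5 at or below it.

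Receptor segments of the gated cells were spread over many genes, and some alpha and beta segments recurred in the same cells. The libraries read the 5′ end of mRNA, where the variable segments lie, but a TRAV segment UMI was seen in only 40.8% of gated cells and a TRBV segment UMI in 50.8%, over the named segments. The rule removed cells with TRAV12-2 or TRAV19, which lowers the TRAV share. In GZMB-zero cells, where no segment was excluded, the shares were 53.8% and 48.4%. TRAV12-3 was the most frequent, in 88 cells (12.4%, against 5.51% of GZMB-zero cells), followed by TRBV27 in 63 (8.87 against 5.53%) and TRBV23-1 in 53 (7.46 against 5.02%). The TRAV12-3 share was 13.1% in the GZMB-rich cells without CX3CR1 and 15.2% in the same gate with the 3 segments. TRBV29-1 had the largest ratio to GZMB-zero cells among the 10 most frequent segments, with 50 cells or 7.04% (5.27 to 9.18%) against 1.41% (1.07 to 1.82%), and its share was 3.94% in the GZMB-rich cells without CX3CR1. Some alpha and beta segments fell in the same cells. Of the 41 cells with TRAV21, 22 also had TRBV27 (53.7%, where TRBV27 was seen in 8.87% of the gate), as did 19 of the 25 cells with TRAV9-1 (76.0%). Of the 11 cells with TRBV19, 8 had TRAV20.

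Receptor segments led the variation between gated cells. Over 2470 genes with a mean of at least 0.1 UMI per thinned cell, the ratio of variance to mean, which is 1 for molecules drawn at random, had a median of 1.02 and a 90th percentile of 1.19, and 53 genes reached 2. TRBV7-2 had the highest ratio, 12.8 in 14 cells, followed by TRBV5-1 (8.59) and TRBV27 (8.41). Outside the receptor genes the highest were ACTB (5.27), the MHC class II chaperone CD74 (5.07), GZMK (3.73), CCL5 (3.28) and S100A4 (3.06).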

How the data were processed

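The authors sequenced the RNA and antibody tag libraries of 1 animal and made the deposited counts, per the labels, with Cell Ranger 3.1.0 (aligner STAR 2.5.1b, genome Mmul_10), and analysed them in Seurat 3.1.3. The deposited values are raw UMI counts of 35432 genes and 2 tags in the same 7923 distinct barcodes, without normalization. Sources used here do not give the annotation release. The features name 23817 genes and a gene name table named 720 more.

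The filter kept 7601 barcodes (200 to 4000 genes, mitochondrial UMIs of 13 named genes and 2 unnamed IDs at most 20%). UMIs were summed per group and scaled to CPM. Genes of the gate were left out of counts. Ratios have exact binomial intervals, CPM exact Poisson and shares Clopper-Pearson intervals (95%). A gene with no UMI in a group was set at 3 counts. Thinning to 2000 UMIs used seed 1 and left out 495 cells. No doublet was removed. B cell gene cells had at least 3 UMIs of MS4A1, CD79A and CD79B together. Scripts were tested on simulated data and used Python 3.11.15, scipy 1.17.1, scanpy 1.11.5, numpy 2.4.6, matplotlib 3.10.9 and pandas 2.3.3.

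Named genes were those of the lists, the 15 with the largest ratio in each direction against GZMB-zero cells, the 8 in each direction for each other comparison, the 10 most frequent TRAV or TRBV segments and the 15 most variable genes. Segments outside these, the segment pairs and the splits within the gate were chosen after their values were seen. Members and lists were chosen with earlier results of these data known. Results for some genes are not reported here.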

Additional observations from a re-analysis of the deposited data

Results flagged for a closer look

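The gate also found cells outside the populations compared. Of the 244 barcodes with a CD3 UMI that failed the filters on genes or mitochondrial UMIs, 20 passed it, or 8.20% (5.08 to 12.4%), an interval that includes the 9.54% of kept CD3+ cells. They are given because no comparison used them.

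Among the 156 kept cells with no CD3 UMI, 4 held a CX3CR1 UMI and at least 3 GZMB UMIs, or 2.56% (0.703 to 6.43%). They too entered no comparison. These 4 cells held 95 GZMB, 38 NKG7, 22 TYROBP and 5 FCGR3 UMIs, no UMI of a named TRAV or TRBV segment, and none of ADGRG1 or TBX21. They were few and shallow, with a median of 2585 UMIs.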

How the results depend on the processing

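With 1 sample, no alternative carries a test, and precision is set by counting: a gene of 50 UMIs has wide intervals, and transcripts seen in few cells depend on depth. No paired analysis was possible because there is 1 sample. Of 61 alternative values of the share, the tag medians and the counts of genes, 48 stayed within the counting interval or 1.5 times the count. The share of CD3+ cells in the gate was 8.44% with GZMB of at least 5 UMIs, 3.26% with CX3CR1 of at least 2, 15.8% without the segment exclusion and 6.13% when cells were thinned before the gate. The median CD4 tag was 297.5 UMIs after that thinning, and the median CD8 tag was 388 UMIs with CX3CR1 of at least 2. The 273 higher and 138 lower genes became 442 and 539 with a pseudocount of 1, 95 and 21 with 50, and 58 and 79 against all CD3+ cells outside the gate. With ribosomal UMIs left out of the totals, chosen after seeing the data, they were 208 and 225. Higher genes outnumbered lower ones with 10 or 50 as pseudocount, and lower ones outnumbered higher ones in the other 3 of these settings. Of 110 named genes past 2-fold, 57 stayed past it in the same direction against all CD3+ cells outside the gate, 65 with a pseudocount of 50, and 98 to 110 under the others. With cells that held a B cell gene UMI left out, EGR1 was 0.47 and MS4A1, CD79A and CD79B were 0 by construction, HBB was 0 when cells were thinned before the gate, and TRAV9-1 was -0.078 with CX3CR1 of at least 2. GZMK, 0.24 on CPM + 10 and within 2-fold, ranged from -0.58 to 0.33 over the alternatives. The causes of the other changes were not tested.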
